A study of Mus musculus with 17 samples.

Results

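Fat-associated lymphoid clusters are small groups of lymphocytes that sit in visceral fat without a capsule. The genes described here are 10 signals that build or fill such clusters, *Cxcl13*, *Cxcr5*, *Ccl19*, *Ccr7*, *Ltb*, *Ltbr*, *Tnfsf13b*, *Tnfsf11*, *Il33* and *Cxcl12*. They were picked by name for their known roles and found by their Ensembl gene identifiers among 55401 in the files, and all 10 were measured. RNA came from whole perigonadal white adipose tissue (pWAT) of 17 C57BL/6J mice, with 1 library for each mouse. There were 5 wild-type (WT) and 5 U9-KO females (F), and 3 WT and 4 U9-KO males (M). U9-KO mice are homozygous for a deletion of every exon of the long non-coding RNA gene *U90926*. WT and U9-KO mice were littermates from heterozygous breeders, were fed standard chow and gave tissue at 16 weeks. The paper describes a phenotyping screen of the cohort with food withdrawal, a glucose injection, blood sampling and scans under anaesthesia. It also reports cohort measurements at ages later than the stated tissue collection. Which of these steps the sequenced mice went through before collection is not given in the sources used here. The comparisons ask whether the signals differed between genotypes in each sex, and whether they followed *Cd79a*, part of the B cell receptor complex, from mouse to mouse.

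In lymphoid tissue, stromal cells that sense lymphotoxin make chemokines, and the chemokines draw B cells, T cells and dendritic cells that carry the matching receptors. B cells attracted by CXCL13 through CXCR5 can in turn carry lymphotoxin on their surface, so that the signal feeds on itself. In visceral fat, tumour necrosis factor, interleukin 33 and innate lymphoid cells also take part, and the clusters house B cells that make natural antibodies.

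Positions are on GRCm38, and all 10 genes are protein coding. The chemokine genes were *Cxcl13* at chr5:95956951-95961068, *Ccl19* at chr4:42754525-42756577 and *Cxcl12* at chr6:117168535-117181367. The chemokine receptor genes were *Cxcr5* at chr9:44511787-44561877 and *Ccr7* at chr11:99144196-99155077. The lymphotoxin pair lay at chr17:35194439-35196320 for *Ltb* and at chr6:125306571-125313885 for *Ltbr*. The cytokine genes were *Tnfsf13b* at chr8:10006467-10039072, *Tnfsf11* at chr14:78277445-78308043 and *Il33* at chr19:29925114-29960718. *Cxcr5*, *Ccl19* and *Tnfsf13b* share sequence with a gene on the opposite strand (*Bcl9l*, *4930578G10Rik* and *Gm44789*). *Ltb* holds a microRNA gene, *Mir6973a*, on its own strand. The libraries kept strand, but whether the counting used it is not given in the sources used here. The pseudogenes *Ccl19-ps3* and *Ccl19-ps1* had 32 to 85 and 17 to 46 normalized counts, close to *Ccl19* itself, so the value of *Ccl19* is uncertain.

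RefSeq promoter windows (GRCm38.p6, 250 bases before to 50 after a start) were found for 8 of the 10 genes, all but *Cxcr5* and *Ccr7*. Both strands were searched for the kappaB motif, which NF-kappaB proteins downstream of lymphotoxin bind, for CCCNNGGG (EBF), for ATGCAAAT (octamer) and for GAGGAA (PU.1). A kappaB match was present in 1 of the 8 genes, *Ltb*, against 8.46% of 32851 windows. The PU.1 letters were present in *Ltb*, *Ltbr* and *Il33* (28.3% of windows), the octamer in *Il33* (1.74% of windows) and the EBF letters in none of the 8 (13.7% of windows). The bases upstream of *Ltb* (chr17:35194257-35194438, plus strand) are shown because they hold the kappaB match, in capitals, and those upstream of *Cxcl13* (chr5:95956689-95956938, plus strand) because it had the widest range among males and held no match.
Ltb: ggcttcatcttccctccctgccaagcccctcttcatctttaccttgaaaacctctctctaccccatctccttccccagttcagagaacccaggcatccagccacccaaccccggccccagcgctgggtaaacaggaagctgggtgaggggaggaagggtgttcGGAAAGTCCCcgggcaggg
Cxcl13: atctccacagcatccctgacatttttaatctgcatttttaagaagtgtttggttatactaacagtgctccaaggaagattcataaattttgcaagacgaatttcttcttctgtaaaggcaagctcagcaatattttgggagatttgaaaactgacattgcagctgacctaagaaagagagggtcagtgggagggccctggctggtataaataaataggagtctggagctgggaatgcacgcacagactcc

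The values are normalized counts, for which the authors scaled each library's reads by its size factor and rounded to whole numbers. They summed to between 20243688 and 28620744 in a library, and the number of reads behind them is unknown. *U90926* had 0 or 1 normalized count in each WT mouse and 0 in each U9-KO mouse, so it could not check the genotypes. Adipocyte genes were abundant in all libraries, with 65303 to 244958 normalized counts of *Fabp4*, a fatty acid carrier. Female libraries also held ovary genes, whose sum over 14 genes ran from 4628 to 141111 and was highest in KO F 1 and WT F 4, while the male range was 271 to 513. Of the genes of lymph node stroma and vessels, *Glycam1* had 0 to 4 and *Madcam1* 0 to 5 normalized counts, while *Chst4* had 44 to 314 and *Ccl21a* 604 to 2836. Their sum over 11 measured genes, *Cxcl13* and *Ccl19* among them, ran from 8952 to 12836 for females and from 14653 to 20922 for males. The most abundant were *Enpp2*, with 2427 to 5432 in females and 8316 to 9964 in males, and *Mfge8*, with 3612 to 4657 and 4360 to 8357. Whether lymph nodes were removed is not given in the sources used here.

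Per kilobase of exon, the 10 genes spanned a wide range of levels. In females *Cxcl12*, which holds B cells and their precursors in their niches, was highest, with a median of 971 normalized counts per kb, and *Ltbr*, the receptor that stromal cells use to sense lymphotoxin, followed at 586 per kb. *Cxcl13* had a median of 343 per kb, *Il33* 166, *Ltb* 64.3, *Ccl19* 39.2, *Tnfsf13b* 28.9, *Cxcr5* 28.1, *Ccr7* 17.7 and *Tnfsf11* 3.13. Adjacent genes in that order had overlapping ranges except *Il33* above *Ltb* and *Ccr7* above *Tnfsf11*. *Tnfsf13b* and *Cxcr5* could not be ordered, as *Tnfsf13b* was higher in 5 of 10 females. In males the order began with *Ltbr* (median 769 per kb) and *Cxcl12* (627 per kb), which overlapped, and *Ltbr* was higher in 6 of 7 males. *Cxcl13* had a male median of 59.1 per kb and overlapped with *Il33* (79.3 per kb). The scaling seems to have been done apart for females and males, so levels were not compared between the sexes.

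**Figure D1:**
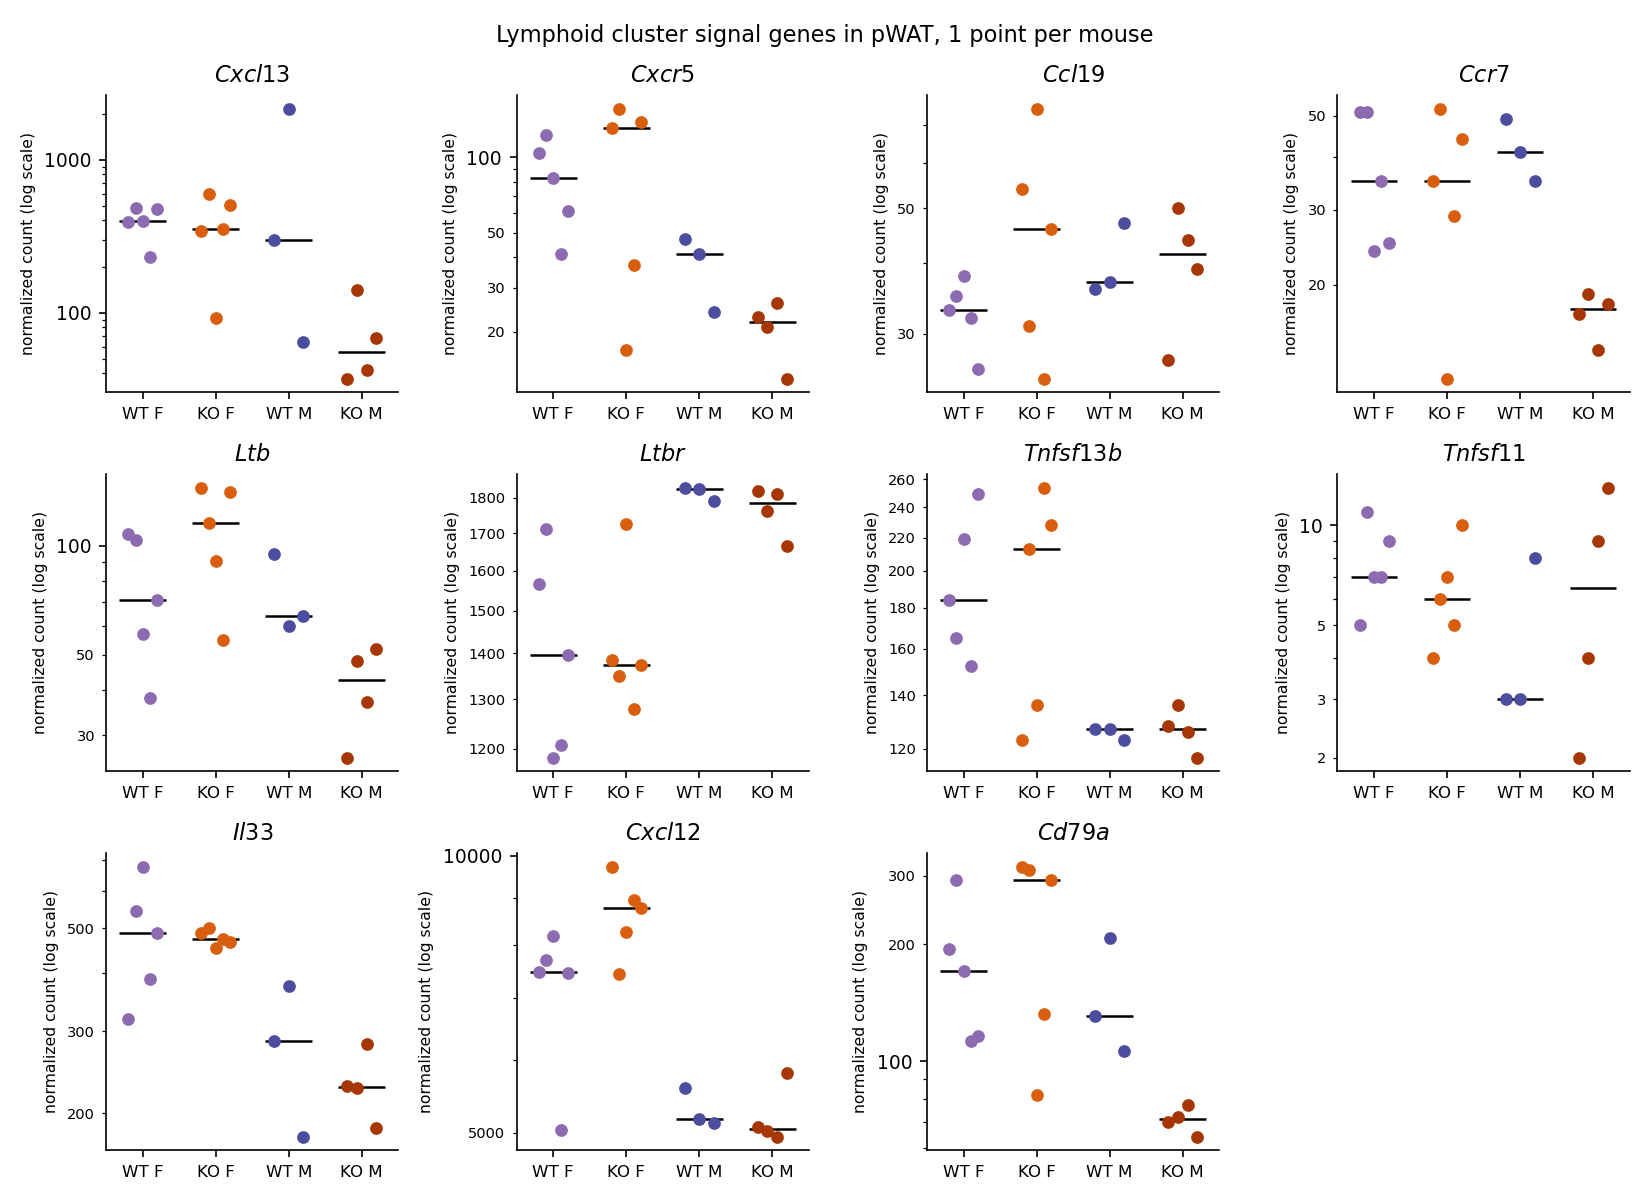
Normalized counts of the 10 genes and *Cd79a* in 17 mice, on log scales that differ between panels. Each point is a mouse, each bar a group median, and the groups are WT and KO females (F) and males (M). *Ccr7*, *Ltb* and *Cd79a* had no overlap between the 3 WT and 4 KO males, while every panel overlapped between the 5 WT and 5 KO females.

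*Cxcl13* encodes the chemokine that leads B cells into follicles. The WT F mice had 392, 479, 398, 230 and 477 normalized counts and the KO F mice 342, 598, 92, 350 and 506. The WT M mice had 298, 2157 and 64 and the KO M mice 37, 141, 42 and 68. The female groups overlapped, and among males 1 WT mouse stood at 2157 while the lowest WT mouse lay within the KO range. The female log2 difference, KO minus WT, was -0.26 (SE 0.43, limma, adjusted p = 1). The male log2 difference was -2.46 (SE 0.94, adjusted p = 0.616), and it was -1.14 without WT M 2. WT M 2 also had the highest sum of the 8 macrophage genes, 40018 against 18466 to 28228 in the other 6 males. The same held for the B cell genes (1414 against 484 to 812) and the lymph node stroma genes (20922 against 14653 to 16614). The stroma sum includes *Cxcl13* itself. The T cell sum of WT M 2, 528, was the lowest of the WT males. The part of any of these cell types in the *Cxcl13* value was not tested. A bulk library cannot tell fewer cells of a type from less RNA per cell.

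*Cxcr5*, the CXCL13 receptor on B cells and follicular T cells, ran from 17 to 157 in females. The WT F mice had 104, 123, 83, 41 and 61 normalized counts and the KO F mice 131, 157, 17, 37 and 139. KO females thus held both the highest and the lowest values. The WT M mice had 47, 41 and 24 and the KO M mice 23, 21, 26 and 13, with an overlap of WT M 3 and KO M 3. The female log2 difference was -0.10 (SE 0.59, limma, adjusted p = 1). For males it was -0.81 (SE 0.34, limma, adjusted p = 0.629).

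*Ccr7*, which guides naive T cells and mature dendritic cells to CCL19 and CCL21, showed the clearest separation of the male groups. The WT M mice had 49, 41 and 35 normalized counts and the KO M mice 17, 19, 14 and 18. No KO male reached the lowest WT male, and the means were 41.7 ± 7.02 (SD, n = 3) and 17 ± 2.16 (SD, n = 4). The log2 difference was -1.24 (SE 0.26, limma, adjusted p = 0.612), and it stayed between -1.36 and -1.12 when each male was left out. The exact permutation test of the means gave p = 0.0571, two-sided and unadjusted, the smallest that 3 against 4 mice allow. In females *Ccr7* had 51, 51, 24, 35 and 25 in WT and 35, 52, 12, 29 and 44 in KO mice, and the groups overlapped (log2 difference -0.18, SE 0.39, adjusted p = 1). Its ligand gene *Ccl19* ran from 26 to 38 in WT F, 25 to 75 in KO F, 36 to 47 in WT M and 27 to 50 in KO M mice. The *Ccl19* means of WT and KO males were both 40 (SD 6.08, n = 3, and 9.76, n = 4), and its log2 difference in females was 0.39 (SE 0.29, adjusted p = 1).

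*Ltb*, the membrane subunit of lymphotoxin, also separated the male groups. The WT M mice had 95, 60 and 64 normalized counts and the KO M mice 26, 48, 37 and 52. All KO males lay under all WT males, with a log2 difference of -0.84 (SE 0.28, limma, adjusted p = 0.612) and an exact permutation p = 0.0571 for the means. In females the order of the means was the other way, with 108, 104, 57, 38 and 71 in WT and 145, 116, 91, 55 and 141 in KO mice. The female ranges overlapped, and the log2 difference was 0.55 (SE 0.34, adjusted p = 1). The male minus female difference in the KO effect was -1.39 (SE 0.49), with an adjusted p of 1 over 26289 genes in limma. *Ltbr* differed little between genotypes, with 1183 to 1711 in WT F, 1279 to 1725 in KO F, 1792 to 1830 in WT M and 1664 to 1820 in KO M mice.

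*Cxcl12*, the most abundant of the 10 in females, differed by more than the others there relative to its error. The WT F mice had 7484, 7700, 8174, 5041 and 7462 and the KO F mice 9734, 7435, 8263, 8958 and 8772. The groups overlapped through KO F 2 and the WT mice above it, and the means were 7172 ± 1225 and 8632 ± 853 (SD, n = 5 each). The exact permutation test gave p = 0.0476, two-sided and unadjusted, with 0.00794 the smallest that 5 against 5 mice allow, and p = 0.0714 after TMM scaling. The log2 difference was 0.28 (SE 0.14, limma, adjusted p = 1) and 0.16 without WT F 4, which had 5041 and was rich in ovary genes. KO F 1 had a higher sum of ovary genes (141111 against 127334) and the highest *Cxcl12*, 9734. Alternative fits other than leaving 1 mouse out gave a female log2 difference of 0.11 to 0.28 for *Cxcl12*. They included the ovary list as a covariate and a fit without the 2 ovary-richest females. Beyond these fits, the part of ovary tissue in these values was not tested. Males showed 5129 to 5588 in WT and 4952 to 5806 in KO mice.

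The remaining cytokines showed no separation in either sex. *Tnfsf13b* encodes BAFF, the survival factor of mature B cells, and had 152 to 249 normalized counts in WT F, 123 to 254 in KO F, 123 to 127 in WT M and 117 to 136 in KO M mice. *Il33*, an alarmin that activates type 2 innate lymphoid cells in fat, had 319 to 678 in WT F, 453 to 501 in KO F, 178 to 376 in WT M and 186 to 282 in KO M mice. *Tnfsf11* encodes RANKL, needed for lymph node formation, and was scarce with 2 to 13 normalized counts in all mice. At such values a difference in *Tnfsf11* was not detectable.

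Across the 10 genes, none passed an adjusted p of 0.05 between genotypes in females (0% of 24825 genes did) or in males (0% of 21930). With the count model DESeq2 the paper reports some genes called in each sex and none in both sexes together. The 0% shares therefore belong to the limma fit used here. At an unadjusted limma p under 0.05, 0 of 10 genes stood in females, against 2.23% of all genes. In males 4 of 10 did (*Cxcl13*, *Cxcr5*, *Ccr7* and *Ltb*), all lower in KO mice, against 7.6% of all genes. With no overlap of the groups as the rule, KO males lay under WT males for 2 of the 10 genes, *Ccr7* and *Ltb*, against 3.8% of all genes. For KO females this held for 0 of 10, against 0.0685%. The median log2 difference of the 10 genes was -0.02 in females and -0.13 in males, and that of all genes tested was 0.00 in both. In both sexes together 0 of 10 were called (0% of 26289 genes). There 1 of 10, *Ccr7*, had an unadjusted p under 0.05 (log2 difference -0.61, SE 0.28, adjusted p = 0.938), against 4.02% of all genes. The KO effect differed between sexes for 0 of 10 (0% of 26289 genes). *Ltb* alone, 1 of 10, had an unadjusted p under 0.05 there, against 3.46% of all genes.

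**Figure D2:**
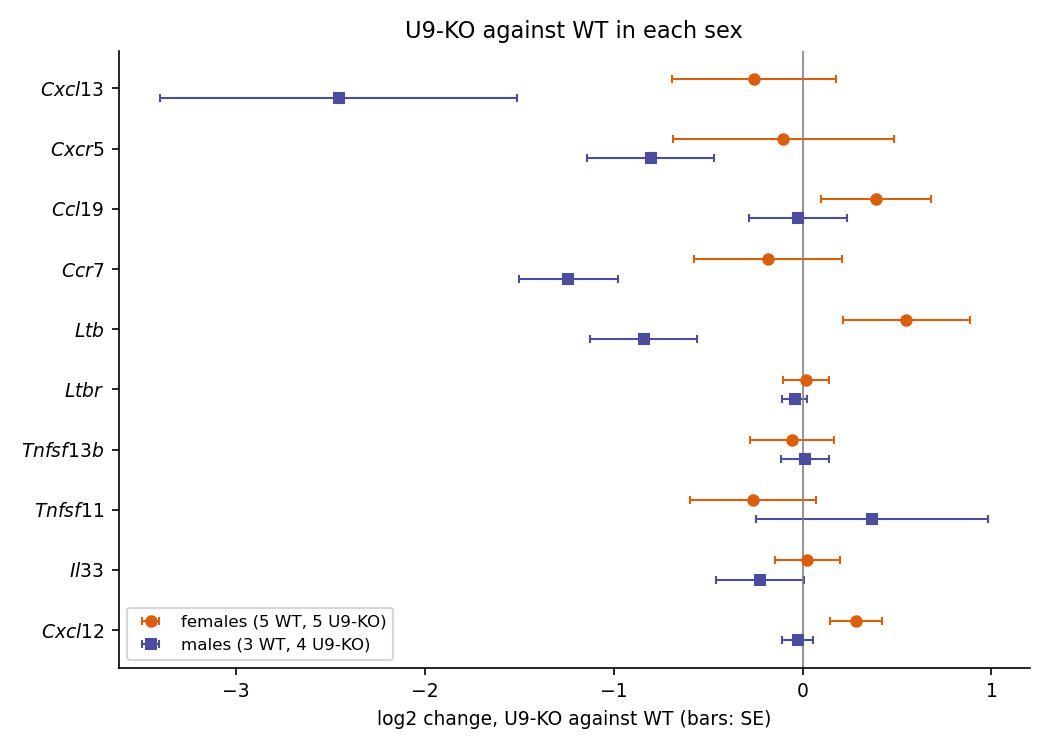
Log2 change of the 10 genes in U9-KO against WT mice, with circles for females and squares for males and bars for the standard error of limma. *Cxcl13*, *Cxcr5*, *Ccr7* and *Ltb* lie to the left of 0 in males, from -2.46 to -0.81, and none of the 20 changes passed an adjusted p of 0.05.

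B cell genes were lower in the same males, though none passed the adjusted threshold. All 12 genes of the B cell list were lower in KO than in WT males, 8 of them at an unadjusted p under 0.05 against 7.6% of all genes, and their sums were 644 to 1414 in WT and 484 to 606 in KO males. *Cd79a* had 131, 208 and 106 normalized counts in WT and 70, 72, 77 and 64 in KO males, with no overlap. The T cell list was lower for 12 of 12 genes, with sums of 528 to 738 and 349 to 542. Only 1 of these 12 had an unadjusted p under 0.05, near the 7.6% of all genes. The macrophage list was lower for 7 of 8 genes, 3 of them at an unadjusted p under 0.05, with sums of 24293 to 40018 and 18466 to 24244. With the log2 level of *Cd79a* as a covariate, the log2 difference of *Ccr7* was -1.19 (SE 0.58), that of *Ltb* -1.16 (SE 0.60) and that of *Cxcr5* 0.00 (SE 0.67), and *Cxcl13* turned to 2.20 (SE 1.04), none of them called. Because *Cd79a* itself split the males by genotype, the effect of genotype and the level of *Cd79a* cannot be told apart in them.

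In females *Cd79a* had 195, 293, 171, 113 and 116 normalized counts in WT and 317, 311, 82, 132 and 293 in KO mice, so that both genotypes covered the range. Of the 10 genes, *Cxcr5* followed it most closely, with Pearson's r = 0.94 (permutation p = 6e-05) and Spearman's rho = 0.92 (permutation p = 0.00045) over 10 mice. Without KO F 1 and KO F 2, the mice farthest from the median of *Cd79a*, r was 0.93. In the limma regression over all genes *Cxcr5* rose by 1.35 log2 units (SE 0.17) for each log2 unit of *Cd79a*, with an adjusted p of 0.0292. This was 1 of 10 genes called, against 0.0201% of 24824 genes. Also called were *Ms4a1*, *Ighd* and *Siglecg*, all known B cell genes and named after their values were seen. The call was kept without WT F 5 and lost without each of the other 9 females, where the adjusted p ran up to 0.159 and r stayed between 0.93 and 0.95.

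*Cxcl13*, *Ccr7* and *Ltb* went with *Cd79a* less closely, and none of them passed the adjusted threshold in females. For *Ccr7* r was 0.79 (permutation p = 0.00431) and rho 0.69 (p = 0.0296), and r was 0.81 without the 2 farthest mice. For *Cxcl13* r was 0.72 (permutation p = 0.00662) and rho 0.57 (p = 0.0881), with r = 0.75 without those mice and 0.55 without KO F 3. For *Ltb* r was 0.70 (permutation p = 0.0265) and rho 0.80 (p = 0.00717), with r = 0.59 without those mice. These p-values are two-sided and unadjusted, 20 relations were computed over both sexes, and the adjusted p of the regressions over all genes was 0.837 for *Ccr7*, 0.847 for *Cxcl13* and 0.925 for *Ltb*. At an unadjusted p under 0.05 in the regression, 4 of 10 genes stood, against 4.35% of all genes. Other lists moved with these genes as well. In females *Cxcl13* had r = 0.80 with the macrophage list and *Ltb* r = 0.81 with the lymph node stroma list. The stroma list is not separate from the B cell list, as both hold *Fcer2a* and *Cr2*. The part of these lists in the relation to *Cd79a* was not tested.

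The females below a gap in *Cd79a* were also looked at apart. No female had between 195 and 293 normalized counts of *Cd79a*. Among the 6 females below the gap r was 0.92 for *Cxcr5*, 0.76 for both *Cxcl13* and *Ccr7*, and 0.13 for *Ltb*. The *Ltb* value turned on KO F 3, with 82 normalized counts of *Cd79a* and 91 of *Ltb*, and over all females r for *Ltb* was 0.88 without this mouse. This split was chosen after the values were seen, and no gene was called in these 6 mice.

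The other 6 genes had r between -0.02 and 0.35 with *Cd79a* in females, and none of their regressions passed the threshold. *Cxcl12* had r = 0.35 and *Il33* 0.19, while *Ltbr* (0.02), *Tnfsf13b* (-0.01), *Tnfsf11* (-0.01) and *Ccl19* (-0.02) lay near 0. The value of *Ccl19* turned on KO F 3, which had the lowest *Cd79a* (82) and the highest *Ccl19* (75), and r was 0.68 without this mouse. KO F 3 also had the lowest *Cxcl13*, *Cxcr5* and *Ccr7* among females, the lowest macrophage sum (11405) and the highest endothelium sum (33289). Its adipocyte and erythrocyte sums (799213 and 41769) were the highest among females. All its normalized counts summed to 28620744, against 20243688 to 24033629 in the other libraries. Its part in the female values was not tested beyond leaving it out.

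In males no r with *Cd79a* is given, since the 3 WT and 4 KO mice form separate sets along it. The regression over all genes called 0 of 10 genes, against 0.0228% of 21929 genes. At an unadjusted p under 0.05 it gave 4 of 10, *Cxcl13*, *Cxcr5*, *Ccr7* and *Il33*, against 11.7% of all genes. With genotype as a covariate 2 of 10 stood at an unadjusted p under 0.05, against 7.79% of all genes, and 0 genes were called. Without WT M 1 the regression called 1178 genes and 1 of the 10, *Cxcl13* (adjusted p = 0.0126).

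**Figure D3:**
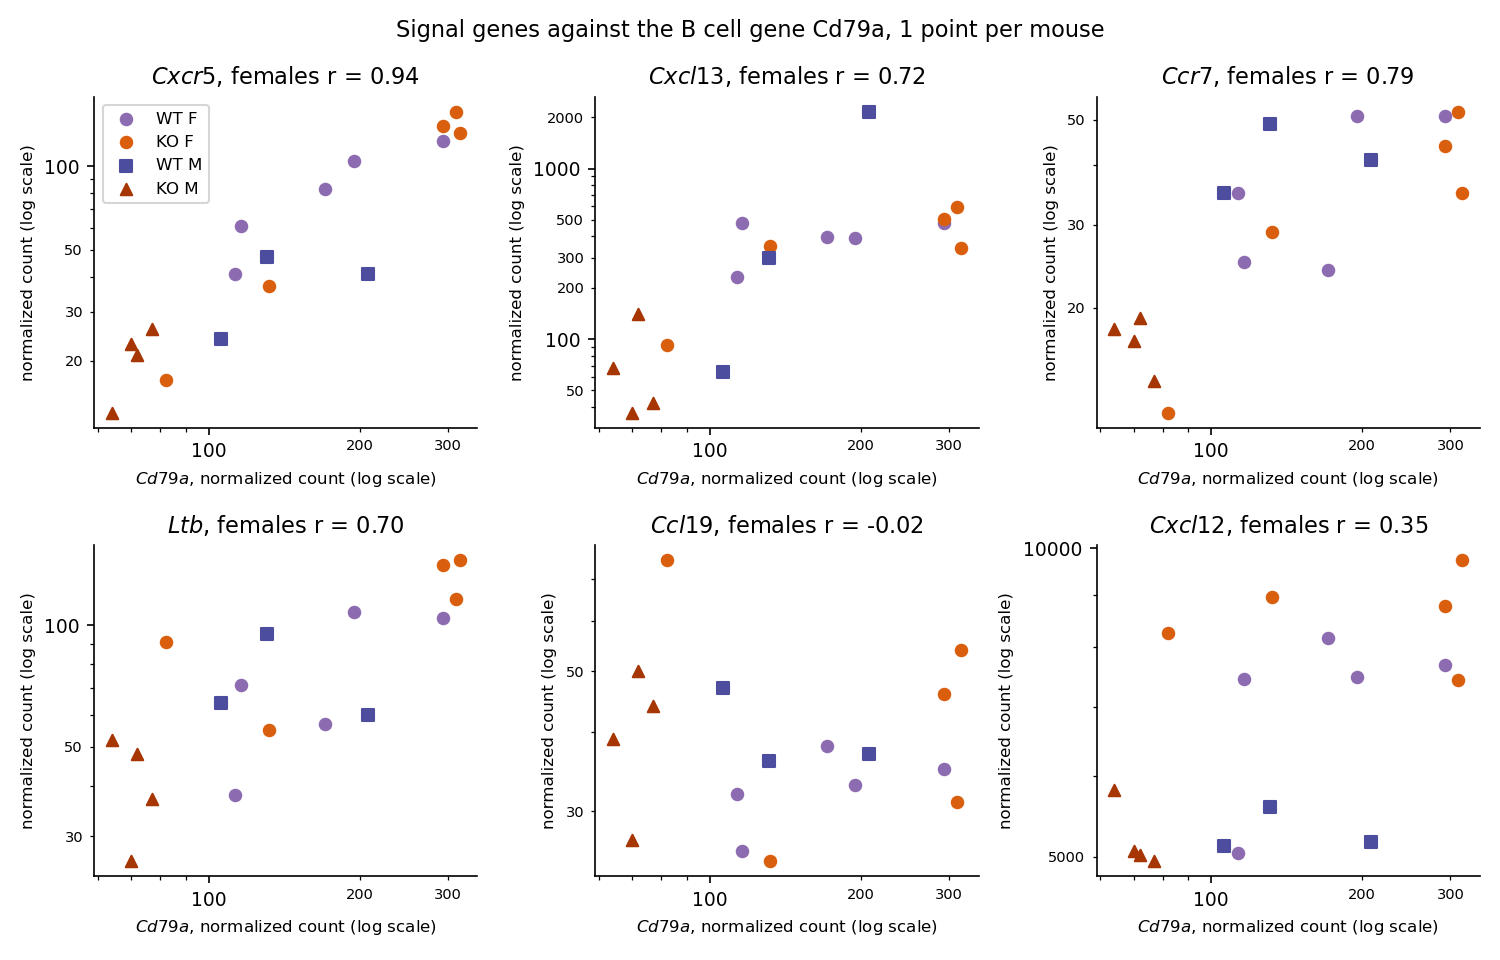
Normalized counts of 6 of the genes against *Cd79a*, both on log scales, with 1 point per mouse and symbols by group. Females (circles) line up closely for *Cxcr5* (r = 0.94) and less so for *Cxcl13* (0.72), *Ccr7* (0.79) and *Ltb* (0.70), and KO males (triangles) all lie to the left of the WT males (squares).

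Ligands and receptors were also set against each other in females. *Cxcl13* and *Cxcr5* had r = 0.85 (permutation p = 0.00298) and rho = 0.75 (permutation p = 0.0167) over 10 mice, and r fell to 0.59 without KO F 3 and KO F 2, the mice farthest in *Cxcl13*. *Ccl19* and *Ccr7* had r = -0.46 (permutation p = 0.182) and rho = -0.21 (permutation p = 0.551), and r was 0.35 without KO F 3 and KO F 1. *Ltb* and *Ltbr* had r = 0.53 (permutation p = 0.114) and rho = 0.41 (permutation p = 0.249). These p-values are unadjusted, 6 such relations were computed over both sexes, and the male ones share the split by genotype.

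The genes most like each signal were named by a fixed measure, Pearson's r of log2 values centred within sex over 17 mice, among 16209 genes with a mean of at least 10 in each sex. They are taken from the 3 highest of many values, so they are a description. *Cxcr5* was most like *Cacna1i* (r = 0.92), *Ms4a1*, which encodes the B cell surface protein CD20 (0.92), and *Cd79a* (0.90). Among the genes most like *Ccr7* were *Cacna1i* (0.83) and *Ms4a1* (0.82). *Ltb* was nearest to *Itgal*, the leukocyte integrin chain (0.90), *Rhoh* (0.88) and *Nlrp3*, an inflammasome sensor (0.88). *Cxcl13* was nearest to *March1*, a ubiquitin ligase of antigen-presenting cells (0.89), *Plek* (0.83) and *Arhgdib* (0.82). *Cacna1i* and *Ms4a1* were thus among the nearest genes of both *Cxcr5* and *Ccr7*.

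The other 6 signals were nearest to different genes. *Cxcl12* was nearest to *Treml2* (0.94), *Ighj4*, a joining segment of the antibody heavy chain (0.83), and *Sgip1* (0.82). *Tnfsf13b* was nearest to *Tmem88b* (0.90), *Abi3bp* (0.89) and *Osr1* (0.88), but r in males alone was 0.07 for *Tmem88b* and 0.24 for *Abi3bp*. *Il33* was nearest to *Marveld3* (0.80), *Fmod*, a collagen-binding matrix protein (0.78), and *Col8a1*, a collagen chain (0.78). *Ltbr* was nearest to *Smim20* (0.91), *Hgs* (0.90) and *Kcna5* (0.90), with r = -0.09 for *Kcna5* in males alone. *Ccl19* was nearest to *Adgrl2* (0.83), *Upp1* (0.80) and *Tbc1d31* (0.78), with r = 0.50 for *Adgrl2* in males alone. *Tnfsf11*, with few counts, was nearest to *1810014B01Rik* (0.77), *Ccdc66* (0.76) and *Gm12216* (0.73). In females alone r was 0.32 for *1810014B01Rik* and 0.38 for *Ccdc66*.

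The other genes of the pathway formed a list of 30 ligands, receptors, adhesion molecules and NF-kappaB components, of which 29 were tested in females and 28 in males. In females 16 were higher and 13 lower in KO mice, 0 were called, and 1 had an unadjusted p under 0.05, against 2.23% of all genes. In males 4 were higher and 24 lower, 0 were called, and 6 had an unadjusted p under 0.05, all lower, against 7.6% of all genes. The median log2 difference of the list was 0.02 in females and -0.22 in males, beside 0.00 for all genes in both. *Tnfrsf17*, the BCMA receptor of plasma cells, had 0 to 6 normalized counts in WT F and 6 to 15 in KO F mice (log2 difference 1.54, SE 0.52, limma, adjusted p = 1). *Tnfrsf1b* and *Pdpn*, a tumour necrosis factor receptor and a stromal glycoprotein, were next in females, at -0.27 (SE 0.13) and -0.26 (SE 0.15). In males the smallest p-values were those of *Relb*, the NF-kappaB subunit activated by lymphotoxin (-0.37, SE 0.13), *Icam1*, an adhesion molecule (-0.33, SE 0.12), and *Tnfrsf13c*, the BAFF receptor (-1.09, SE 0.41), with adjusted p of 0.612 to 0.614. *Tnfrsf13c* had 37, 22 and 20 normalized counts in WT and 12, 6, 12 and 19 in KO males, and *Icam1* 366, 328 and 322 against 239, 272, 316 and 252, so neither overlapped. KO males lay wholly under WT males for 3.8% of all genes. Both genes were named for their small p-values, so their lack of overlap is no separate support.

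The most abundant genes of that list showed no such separation. *Tnfrsf1a*, the widely expressed receptor of tumour necrosis factor, had 2566 to 3458 normalized counts in females and 3705 to 4327 in males. *Ccl21a*, the other CCR7 ligand, had 1449 to 2836 in females and 604 to 1527 in males, and near-identical copies such as *Ccl21b* had 454 to 1965, so its level is uncertain. *Ackr3*, which takes up CXCL12, had 453 to 1606 in females and 818 to 1465 in males.

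**Figure D4:**
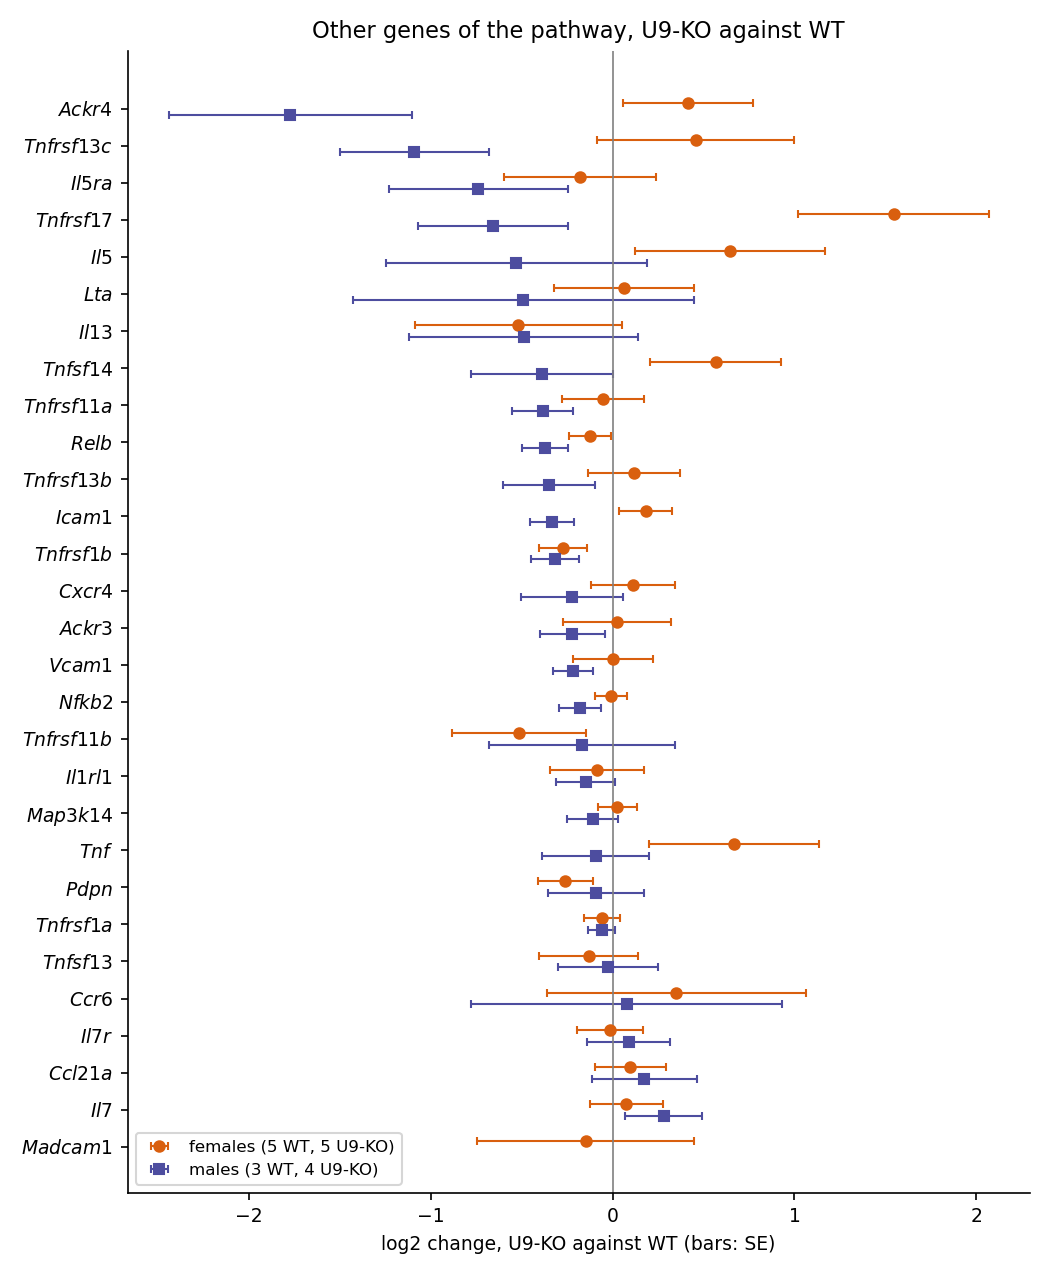
Log2 change of the other pathway genes in U9-KO against WT mice, ordered by the male change, with circles for females, squares for males and bars for the standard error of limma. In males 24 of 28 genes lie left of 0, and in females 13 of 29 do, and none passed an adjusted p of 0.05.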

How the data were processed

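Per the paper's methods, the authors trimmed and aligned the reads and made gene counts with summarizeOverlaps (union mode). The submitters' processing notes name STAR 2.7.3a, DESeq2 1.28.1 and GRCm38. Each deposited value is treated as a score, since the authors had scaled the reads by size factors and rounded, and no count model was run. Column names of 2 male files carry other replicate numbers than the labels, which were used. Gene names and positions came from GENCODE M21. Genes whose values summed to 10 or more across the mice fitted were tested with limma 3.58.1 (R 4.3.3; lmFit, eBayes with trend) on log2(normalized count + 1), with Benjamini-Hochberg adjustment over all genes and a threshold of 0.05. A fold on this scale understates changes of low genes. TMM scaling was written out by hand. Exact tests and 100000 resamples (all 5040 pairings for 7 males) used Python 3.11.15, numpy 2.4.6 and scipy 1.17.1. The fits were tested on simulated data. All 29 pairs of libraries within a group differed in at least 24469 genes, so none was a copy of another. Each was counted as a separate mouse by its replicate label, which this check cannot test.

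The 10 genes and all lists were chosen with earlier results of these data known. Named beside them were *Cd79a*, *U90926*, the 3 pathway genes with the smallest unadjusted p in each sex and the 3 most abundant, the 3 genes most like each signal, and the 2 most abundant of each marker list, except for a few items that are not reported here. In KO against WT mice no gene of any list was called in either sex. Genes lower in KO mice were 3 of 12 B cell, 2 of 10 plasma cell, 2 of 12 T cell, 2 of 8 dendritic cell, 8 of 8 macrophage, 5 of 8 type 2 innate lymphoid cell, 5 of 10 lymph node stroma, 10 of 10 mesothelium, 0 of 8 endothelium, 7 of 10 adipocyte progenitor, 4 of 10 adipocyte, 9 of 14 ovary, 4 of 8 oviduct, 2 of 4 epididymis and testis and 0 of 5 erythrocyte genes tested in females. In males they were 12 of 12, 8 of 10, 12 of 12, 8 of 8, 7 of 8, 5 of 7, 5 of 9, 5 of 10, 6 of 8, 7 of 10, 2 of 10, 3 of 10, 5 of 6, 0 of 1 and 5 of 5 in the same order. The most abundant genes included *Cd79a* (B cell), *Xbp1* and *Txndc5* (plasma cell), *Trac* and *Cd2* (T cell), *Fscn1* and *Zbtb46* (dendritic cell), *Lyz2* and *Csf1r* (macrophage), *Rora* and *Il1rl1* (type 2 innate lymphoid cell), *Enpp2* and *Mfge8* (lymph node stroma), *Upk3b* and *Wt1* (mesothelium), *Cdh5* and *Pecam1* (endothelium), *Col3a1* and *Col1a1* (adipocyte progenitor), *Cfd* and *Fabp4* (adipocyte), *Cyp11a1* and *Hsd3b1* (ovary), *Ovgp1* and *Krt7* (oviduct), *Crisp1* and *Rnase10* (epididymis and testis) and *Hba-a1* and *Hbb-bs* (erythrocyte).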

Additional observations from a re-analysis of the deposited data

Results flagged for a closer look

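Among 33 groups of 4 or 5 mice, formed from the 10 signal genes and *Cd79a*, 3 held a mouse whose gap to the rest exceeded Dixon's limit, where chance alone flags about 1 in 20. *Ltbr* in KO females had 1725 normalized counts in KO F 3 against 1279 to 1385 in the other 4. *Cxcl12* in WT females had 5041 in WT F 4 against 7462 to 8174. *Cxcl12* in KO males had 5806 in KO M 4 against 4952 to 5069. WT males, with 3 mice, were not examined in this way.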

How the results depend on the processing

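None of the 10 genes was called between genotypes under any alternative in females, in males, in both sexes or for the difference between sexes. The number of genes called in all was 1 instead of 0 with no mean-variance trend (females, males, both sexes), with no filter (both sexes, sex difference) and with a pseudocount of 0.5 (both sexes). Leaving out 1 mouse gave 0 to 71 genes in males, with 71 only without WT M 1. After TMM scaling 0 genes instead of 1 had an exact p under 0.05 for the female means.

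Replicate numbers did not pair the mice, with correlations of same-numbered mice from -0.445 to 0.11. With a replicate block 0 genes and 0 of the 10 were called in the 4 KO comparisons. No block was fitted for the regressions on *Cd79a*.

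In the female regression on *Cd79a*, leaving out 1 mouse gave 0 to 1 of the 10 genes and 0 to 7 genes in all. Both counts were 0 without the 2 mice farthest in *Cd79a* and without the 2 ovary-richest females. They were also 0 in the 6 females with under 200 normalized counts of *Cd79a*. With the B cell list in place of *Cd79a* 10 genes were called, but genes of that list were then tested against a level made from themselves. In males leaving out 1 mouse gave 0 to 1 and 0 to 1178. There 0 genes were called with the B cell list in place of *Cd79a*, and 0 with genotype as a covariate. The settings with ovary-richest females, the 6 females or *Cd79a* as a covariate were chosen after seeing the data.

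Some log2 differences changed sign. In females *Ltbr* was -0.0036 with quantile normalization, and *Ltbr* was -0.029, *Tnfsf13b* 0.0049 and *Il33* -0.0497 without the 2 ovary-richest. In males *Ccl19* was 0.048 with quantile normalization, and with *Cd79a* as a covariate *Cxcl13* was 2.20 instead of -2.46, *Ltbr* 0.0087, *Tnfsf11* -0.72 instead of 0.37 and *Il33* 0.88. Leaving out 1 female gave -0.48 to 0.19 for *Cxcl13*, -0.38 to 0.40 for *Cxcr5*, -0.37 to 0.14 for *Ccr7*, -0.055 to 0.089 for *Ltbr*, -0.17 to 0.086 for *Tnfsf13b* and -0.11 to 0.16 for *Il33*. Leaving out 1 male gave -0.14 to 0.15 for *Ccl19*, -0.024 to 0.048 for *Tnfsf13b*, -0.52 to 0.018 for *Il33* and -0.078 to 0.014 for *Cxcl12*.

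Values of r with *Cd79a* in females that changed sign were, for *Tnfsf13b*, 0.0089 with TMM scaling, 0.0030 with genotype as a covariate, 0.049 with the B cell list, 0.25 without the 2 farthest, 0.024 with the ovary list as a covariate, 0.17 without the 2 ovary-richest and 0.46 in the 6 females. For *Tnfsf11* they were 0.057 with genotype as a covariate, 0.44 without the 2 farthest, 0.27 without the 2 ovary-richest and 0.087 without a log. Without the 2 ovary-richest *Ltbr* was -0.10 and *Cxcl12* -0.20, and in the 6 females *Ltbr* was -0.33 and *Il33* -0.045. Leaving out 1 female gave -0.20 to 0.68 for *Ccl19*, -0.19 to 0.47 for *Ltbr*, -0.35 to 0.28 for *Tnfsf13b* and -0.24 to 0.27 for *Tnfsf11*. The cause of these changes was not tested.

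With 3 or 4 males in a group and an unknown number of reads, small differences were not detectable, least of all for *Tnfsf11*.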
